A study of Mus musculus with 16 samples.

Results

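The expression of 10 genes of alternatively activated macrophages and the Cd209 lectin family was followed in wounded mouse skin: Retnla, Arg1, Chil3, Mrc1, Clec10a, Cd163, Cd209a, Cd209b, Cd209d and Cd209f. They were read through every probe whose accession belongs to one of these genes in RefSeq, which gave 11 probes for 10 genes among 39429 probes that were not controls and 20832 named genes. Cd209a had 2 probes and the other genes had 1 each. All wounds were full-thickness wounds of the back of female mice, and the RNA came from a homogenate of the wound with the intact skin around it. WT mice were C57BL/6J, aged 10 to 12 weeks. All other mice were db/db mice of the strain C57BLKS/J Iar-+Lepr db/+Lepr db, aged 10 weeks, whose leptin receptor is defective on both chromosomes and which become obese and diabetic, so that strain and diabetes cannot be told apart in the comparison with WT. The wounds of WT and db/db mice were left untreated, those of the db/db + estrogen group were treated daily with estradiol benzoate dissolved in sesame oil (0.75 μg/g/day), and those of the db/db + vehicle group with the oil alone. Each group had 2 arrays labelled day 7 and 2 labelled day 14, which made 16 arrays in all.

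The days are given here as labelled. The labels of the 2 days run opposite to the days under which the study prints its array results, as described with the processing, so it is not settled which arrays came from the earlier wounds. The arrays labelled day 7 were all scanned on 1 day and those labelled day 14 on another, and day and scan cannot be told apart. No source used here ties an array to a mouse, so p-values measure the spread between arrays, which may be technical. From 70.1% to 79.0% of probes, depending on the array, were well above background, no spot was saturated, and the precision was limited by the 2 arrays per group. Values are levels on a log2 scale, where 0 is the 75th percentile of the array, and a level of 1 probe is never set against that of another.

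Macrophages that meet interleukin-4 or interleukin-13 signal through Stat6 and take on a state called alternative activation, which is linked to the repair of tissue and to the control of inflammation. Retnla (resistin-like alpha), Arg1 (arginase 1, which breaks down arginine) and Chil3 (a chitinase-like protein also made by neutrophils) are its best known secreted or enzymatic products in the mouse. Mrc1 (the mannose receptor), Clec10a (a galactose-type lectin) and Cd163 (the receptor for haemoglobin bound to haptoglobin) are surface receptors of such cells and of macrophages resident in tissue. The Cd209 genes are mouse relatives of human DC-SIGN, a lectin of dendritic cells and macrophages that binds sugars on microbes and on other cells. In RNA from whole tissue, more cells of a type and more RNA per cell cannot be told apart.

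The promoters of Retnla and of Cd209b, Cd209d and Cd209f are shown, because Retnla had the largest change with estrogen of the genes outside the Cd209 family and these 3 had the highest correlations with each other among the 4 Cd209 genes, as given below. RefSeq promoters of GRCm38.p6, each running from 250 bases before the gene's start to 50 bases after it, were found for 8 of the 10 genes. Arg1 and Clec10a had no entry. Capitals mark, on either strand, the Stat6 motif TTCNNNNGAA, the estrogen receptor half-site GGTCA and the PU.1 motif GAGGAA, where PU.1 is a factor that macrophages need. Retnla lies at chr16:48842359-48842658 on the plus strand, Cd209b at chr8:3926792-3927091, Cd209d at chr8:3878450-3878749 and Cd209f at chr8:4105715-4106014, the latter 3 on the minus strand.
Retnla: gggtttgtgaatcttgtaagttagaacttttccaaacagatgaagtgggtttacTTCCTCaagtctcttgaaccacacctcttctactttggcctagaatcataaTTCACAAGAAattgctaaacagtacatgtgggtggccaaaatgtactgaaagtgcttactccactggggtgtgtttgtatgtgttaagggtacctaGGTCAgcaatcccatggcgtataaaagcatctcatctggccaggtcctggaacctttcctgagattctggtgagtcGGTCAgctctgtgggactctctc
Cd209b: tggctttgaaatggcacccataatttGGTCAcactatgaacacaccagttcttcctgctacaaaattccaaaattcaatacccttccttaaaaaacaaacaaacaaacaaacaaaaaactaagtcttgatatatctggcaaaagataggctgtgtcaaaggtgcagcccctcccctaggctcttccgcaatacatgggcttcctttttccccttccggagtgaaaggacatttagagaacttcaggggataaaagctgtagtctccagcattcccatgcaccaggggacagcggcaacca
Cd209d: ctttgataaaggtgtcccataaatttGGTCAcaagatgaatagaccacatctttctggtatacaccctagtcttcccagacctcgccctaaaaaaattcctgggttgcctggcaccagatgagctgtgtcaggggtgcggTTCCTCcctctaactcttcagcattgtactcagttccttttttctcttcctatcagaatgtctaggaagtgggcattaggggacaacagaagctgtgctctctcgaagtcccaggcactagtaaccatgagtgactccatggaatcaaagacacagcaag
Cd209f: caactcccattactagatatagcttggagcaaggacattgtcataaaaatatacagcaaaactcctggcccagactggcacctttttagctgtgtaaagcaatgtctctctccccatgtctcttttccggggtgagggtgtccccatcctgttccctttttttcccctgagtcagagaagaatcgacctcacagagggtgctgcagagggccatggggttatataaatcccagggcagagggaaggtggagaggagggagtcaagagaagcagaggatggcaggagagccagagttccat

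Of these 8 promoters, only that of Retnla held the Stat6 motif, with its first base at −145 from the start, and 6.95% of 32851 mouse promoters of the same length held it. The half-site GGTCA was found 2 times in Retnla and 1 time each in Cd163, Cd209a, Cd209b and Cd209d, and 40.5% of all promoters held it. In both Cd209b and Cd209d it began at −224 from the start. The full estrogen response element GGTCANNNTGACC, which contains the half-site on both strands, was in none of the 8 and in 0.0700% of all promoters. The PU.1 motif was found 3 times in Mrc1 and 1 time each in Retnla and Cd209d, against 28.3% of all promoters with it. Over the 4 Cd209 promoters, 56.3% to 66.0% of the 300 bases were identical in pairwise alignment, with Cd209b and Cd209d the most alike. These matches describe the letters in this window.

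With estrogen against untreated db/db, the 10 genes split into those that rose, those that fell and those that did not pass the test. These groups differed in sesame oil as well as in estradiol, so oil and estradiol cannot be told apart in that comparison. Between db/db + estrogen and db/db on labelled day 7, 8 of 10 genes were called, 6 higher and 2 lower, where a call needs an unadjusted p below 0.05 and a fold change above 2, the thresholds of the study. Of all probes tested in this comparison, 9.97% were called. The same 8 genes also had an adjusted p below 0.05 (limma, Benjamini-Hochberg over all probes tested), against 5.16% of all probes. Retnla, Clec10a and the 4 Cd209 genes were higher, and Arg1 and Chil3 were lower. Of these 8, Cd209b entered the test through the estrogen arrays, since it was well above background on only 1 of 2 db/db arrays. The median log2 fold change over the 10 genes was 3.10, against 0.04 over all probes tested. The arrays of this comparison lay on 2 slides, each with 1 array of either group. Within a slide, the log2 difference was 5.46 and 5.51 for Retnla and −4.60 and −4.43 for Arg1.

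Retnla was higher with estrogen. Its levels with estrogen on labelled day 7 were 0.29 and 1.48. On the other arrays labelled day 7 they were −3.73 and −4.53 in WT, −5.22 and −3.99 in db/db, and −3.95 and −4.76 with vehicle. Both estrogen arrays thus lay above every other array of the series, since the highest of the rest was −1.0, in db/db + vehicle on labelled day 14. The log2 fold change was 5.48 ± 0.64 (SE) against db/db, a 44.8-fold difference with an adjusted p of 0.00164 (limma), and 5.24 ± 0.64 against vehicle, with an adjusted p of 0.00434. Vehicle differed from db/db by 0.25 ± 0.64. For labelled day 14, Retnla was −2.85 and −2.34 in WT, −4.38 and −4.12 in db/db, −2.83 and −1.0 with vehicle, and −2.88 and −3.01 with estrogen. There it was lower in db/db than in WT by a call without adjustment, with a log2 fold change of −1.65 ± 0.64 and an adjusted p of 0.0914 (limma).

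Arg1 moved the other way. It was at −0.21 and −0.23 with estrogen on labelled day 7, the lowest 2 levels of the series, with 4.39 and 4.21 in db/db, 5.39 and 4.53 with vehicle and 1.66 and 1.97 in WT. Arg1 fell by 4.52 on the log2 scale against db/db (SE 0.48, adjusted p 0.00104, limma), which is 22.9-fold, and the log2 fold change against vehicle was −5.17 ± 0.48 (adjusted p 0.00163). In db/db it was higher than in WT by 2.48 ± 0.48 on labelled day 7 (adjusted p 0.00975) and by 1.64 ± 0.48 on labelled day 14 (adjusted p 0.0371). Its level on labelled day 14 was 4.84 and 3.09 on the 2 estrogen arrays, a spread that took in both db/db arrays, which were at 4.29. WT arrays were at 2.97 and 2.34, and vehicle arrays at 5.13 and 4.81.

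Chil3 was lower with estrogen on labelled day 7, at −0.60 and 0.76, than in db/db, at 3.26 and 2.11, or with vehicle, at 3.09 and 2.55. The log2 fold change was −2.61 ± 0.62 against db/db (adjusted p 0.0363, limma) and −2.74 ± 0.62 against vehicle (adjusted p 0.0423). WT, at 1.43 and −0.14, overlapped with estrogen. All 8 arrays of labelled day 14 lay between 3.0 and 4.10, and no difference of Chil3 between groups was called there. Chil4, a close relative of Chil3 whose transcripts a probe may share, was also lower with estrogen against db/db on labelled day 7, by a log2 fold change of −2.35 ± 0.54 (adjusted p 0.0320, limma). It was well above background on 1 of the 2 estrogen arrays, so the size of that change depends on a level near the background.

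**Figure D1:**
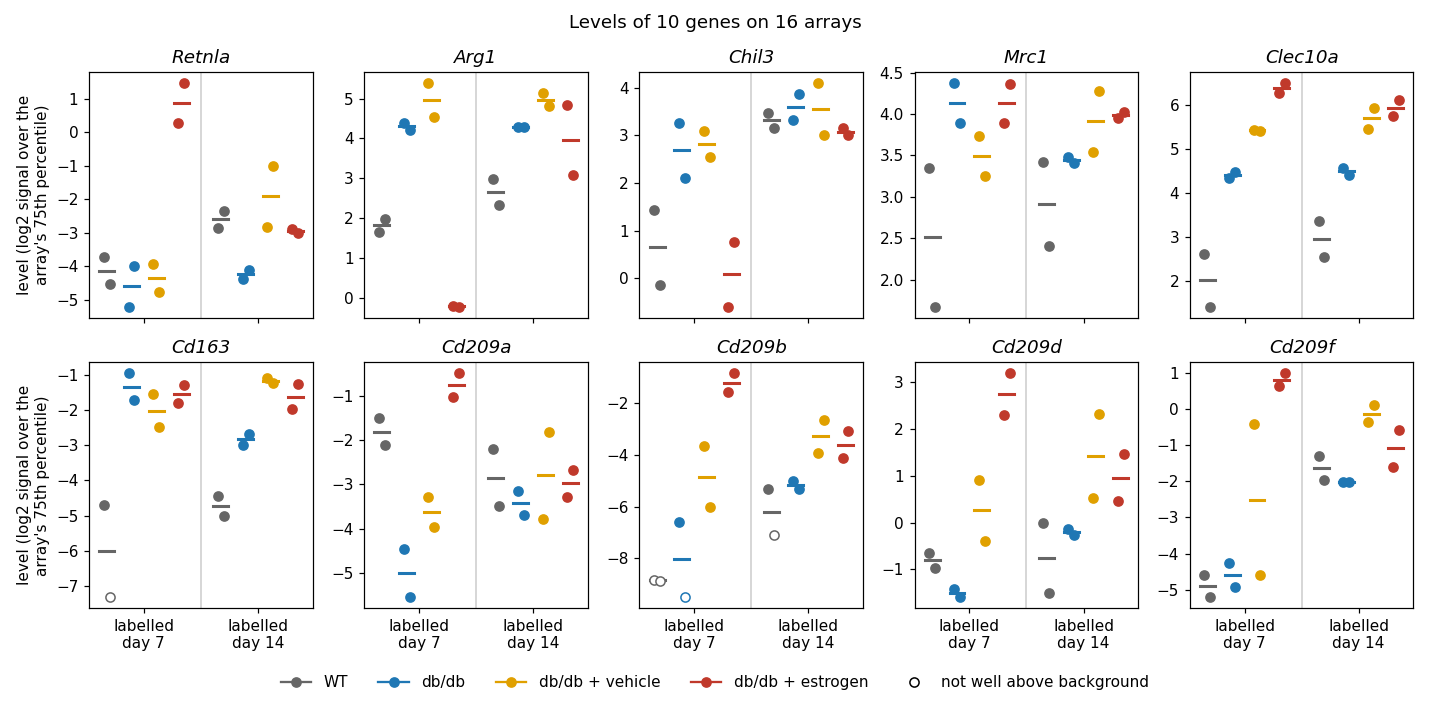
Level of each of the 10 genes (log2 of the signal over the 75th percentile of the array) on 16 arrays, with 1 point per array, a line at the mean of 2 arrays and open points where the probe was not well above background. On labelled day 7 the 2 estrogen arrays are the highest for Retnla and the Cd209 genes and the lowest for Arg1.

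The surface receptors differed among themselves. Clec10a stood in order over the groups of labelled day 7, from 2.62 and 1.42 in WT to 4.33 and 4.48 in db/db, 5.44 and 5.39 with vehicle, and 6.25 and 6.49 with estrogen, and none of these groups overlapped. Estrogen against db/db gave 1.96 ± 0.37 (adjusted p 0.0139, limma), and vehicle against db/db gave 1.01 ± 0.37 (adjusted p 0.264). Estrogen against vehicle gave 0.96 ± 0.37 (unadjusted p 0.0279, adjusted p 0.170), a fold change under 2, so it was not called. Clec10a had on labelled day 14 the same order of group means, and estrogen against db/db gave 1.43 ± 0.37 (adjusted p 0.216). It was the only 1 of the 10 genes called in every comparison of db/db with WT and of a treated group with db/db, on both labelled days. For vehicle against db/db on labelled day 7 that rested on a fold change of 2.01, just above the threshold. That call was lost under 6 of 15 alternatives, among them normexp background correction and quantile normalization. On labelled day 14 the call for vehicle was lost with slide as a fixed block.

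Mrc1 and Cd163 were not called between estrogen and db/db on either labelled day. Mrc1 was at 4.37 and 3.89 in db/db and at 3.89 and 4.37 with estrogen on labelled day 7, and the log2 fold change was −0.01 ± 0.51. Cd163 was at −0.95 and −1.72 in db/db and at −1.80 and −1.28 with estrogen, a log2 fold change of −0.20 ± 0.70. Both were higher in db/db than in WT on labelled day 7. Mrc1 gave 1.62 ± 0.51 (adjusted p 0.0602, limma). It was not called without WT replicate 2 (0.79), without db/db replicate 1 (1.38) or in a fit of the 4 arrays alone. Cd163 gave 4.67 ± 0.70 (adjusted p 0.00320), where WT was at −4.69 and −7.32 and was well above background on 1 of 2 arrays. Cd163 entered this test through the db/db arrays, the size of its change depends on a level near the background, and with normexp background correction it was 2.69. Cd163 on labelled day 14 was at −4.44 and −5.01 in WT, −3.0 and −2.67 in db/db, −1.08 and −1.23 with vehicle and −1.98 and −1.27 with estrogen.

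The 4 Cd209 genes were highest with estrogen on labelled day 7. Cd209b had a log2 fold change of 6.83 ± 1.02 against db/db (adjusted p 0.00460, limma). Estrogen against vehicle gave 3.64 ± 1.02 (adjusted p 0.0743), and vehicle against db/db gave 3.19 ± 1.02 (adjusted p 0.200). Against vehicle it was 2.46 without vehicle replicate 2 and 4.82 without vehicle replicate 1. The levels of Cd209b were −1.56 and −0.85 with estrogen, −3.66 and −6.03 with vehicle, −6.58 and −9.50 in db/db, and −8.82 and −8.87 in WT. It was well above background on both estrogen and both vehicle arrays, on 1 of 2 db/db arrays and on no WT array. It thus entered the tests of estrogen and of vehicle against db/db through the treated arrays. The size of its change with estrogen against db/db depends on a level near the background. With dim signals set to a floor, the log2 fold change was 5.70, and with normexp background correction it was 3.85, below the 4.63 of Retnla and the 4.61 of Cd209f under the same correction. A comparison of db/db with WT could not be made for Cd209b on labelled day 7, because neither group was well above background on both arrays.

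Cd209f was at 0.62 and 0.98 with estrogen, −4.27 and −4.92 in db/db, and −4.60 and −5.21 in WT on labelled day 7. The 2 vehicle arrays lay far apart, at −0.43 and −4.61. Estrogen against db/db gave 5.39 ± 1.01 (adjusted p 0.0128, limma) and against vehicle 3.32 ± 1.01 (adjusted p 0.0941). Without vehicle replicate 1, the log2 fold change against vehicle was 5.41, and without vehicle replicate 2 it was 1.23. Cd209f on labelled day 14 lay between −2.03 and 0.09 on all 8 arrays.

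Cd209d was at 2.31 and 3.19 with estrogen, 0.92 and −0.40 with vehicle, −1.43 and −1.60 in db/db, and −0.64 and −0.98 in WT on labelled day 7. Estrogen against db/db gave 4.26 ± 0.68 (adjusted p 0.00644, limma), and against vehicle 2.49 ± 0.68 (adjusted p 0.0720). The vehicle group was higher than db/db by 1.77 ± 0.68, called without adjustment, with an adjusted p of 0.281.

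Cd209a was the only 1 of the 4 called between db/db and WT on labelled day 7, where Cd209b was not tested. On labelled day 7 its brighter probe was at −1.50 and −2.11 in WT, −4.46 and −5.55 in db/db, −3.28 and −3.97 with vehicle, and −1.03 and −0.49 with estrogen, with no overlap between these groups. It was lower in db/db than in WT by a log2 fold change of −3.20 ± 0.66 (adjusted p 0.0126, limma). Estrogen against db/db gave 4.24 ± 0.66 (adjusted p 0.00546), and against vehicle 2.86 ± 0.66 (adjusted p 0.0439). Its second probe was well above background on 4 of 16 arrays, among them both estrogen arrays of labelled day 7 but no db/db or vehicle array of that day. That probe entered the comparisons through the estrogen arrays. By that probe Cd209a with estrogen was higher than in db/db by at least 4.78-fold, and higher than with vehicle by at least 4.23-fold. Such a bound sets the mean of the bright group against, on each dim array, the lowest signal well above background or the probe's own level where that is higher. The Cd209 genes are close copies of each other, so a probe may read more than 1 of them.

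The 3 further Cd209 genes on the array moved in the same direction as these 4. Estrogen against db/db on labelled day 7 gave log2 fold changes of 2.51 ± 0.56 for Cd209c, 2.45 ± 0.63 for Cd209e and 2.90 ± 0.67 for Cd209g, with adjusted p between 0.0277 and 0.0466 (limma). Against vehicle, Cd209e (1.46) and Cd209g (2.11) were called without adjustment, and Cd209c was at 0.15 ± 0.56. Cd209c was also higher with vehicle than in db/db, by 2.36 ± 0.56 (adjusted p 0.110). Between db/db and WT on labelled day 7, 2 of the 3 were called, both lower, against 14.2% of all probes, and none had an adjusted p below 0.05. Mean levels were −6.05 in db/db and −4.39 in WT for Cd209c, and −5.01 and −3.34 for Cd209e. Cd209g was at −5.91 in db/db and −6.75 in WT, where neither array was well above background.

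**Figure D2:**
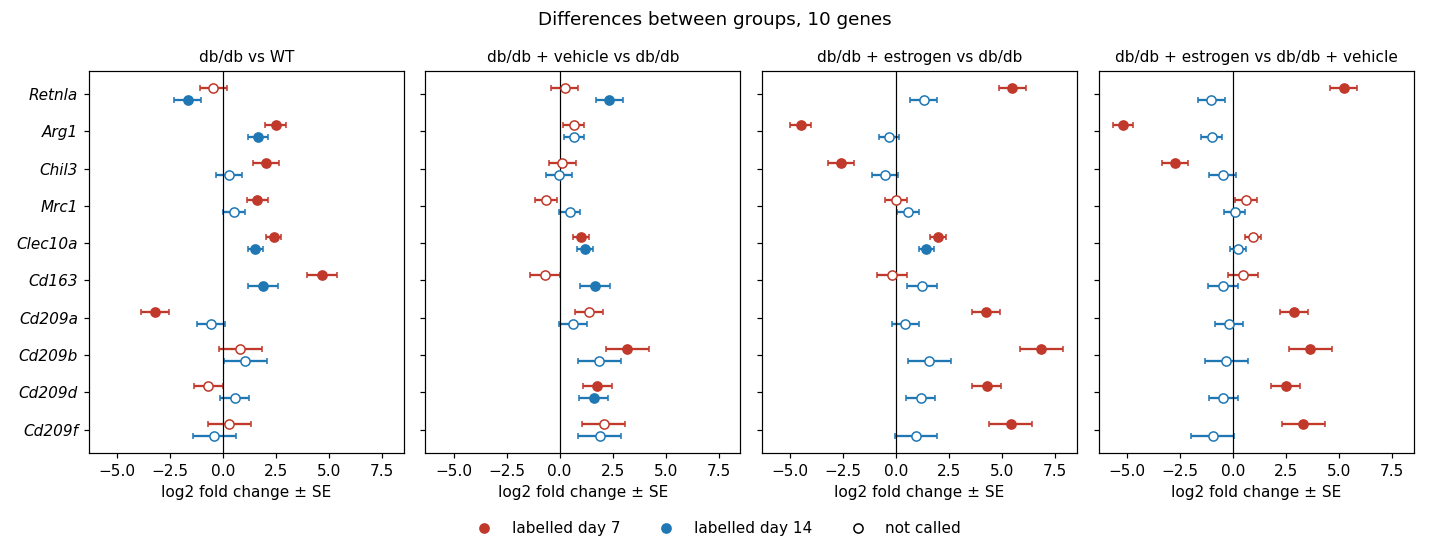
Log2 fold change ± SE of the 10 genes in 4 comparisons (limma, 2 arrays per group), in red for labelled day 7 and blue for labelled day 14, with filled points for calls (unadjusted p below 0.05 and fold change above 2). The red points of Retnla and the Cd209 genes lie to the right and those of Arg1 and Chil3 to the left in both estrogen panels.

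Beside estrogen, the other comparisons of labelled day 7 gave fewer or other calls. With estrogen set against vehicle, 7 of 10 genes were called, against 9.06% of all probes, 5 higher (Retnla and the 4 Cd209 genes) and 2 lower (Arg1 and Chil3). Of these, 4 had an adjusted p below 0.05 (Retnla, Arg1, Chil3 and Cd209a), against 3.18% of all probes. Between db/db + vehicle and db/db, 3 of 10 were called (Cd209b, Clec10a and Cd209d, all higher), against 4.88% of all probes, and the smallest adjusted p was 0.200. Without vehicle replicate 1 or without db/db replicate 2, 0 of the 10 were called there. The comparisons of estrogen and of vehicle with db/db share the db/db arrays, and those of estrogen with db/db and with vehicle share the estrogen arrays.

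Between db/db and WT on labelled day 7, 9 of the 10 genes were tested and 6 were called, against 14.2% of all probes. Arg1, Chil3, Mrc1, Clec10a and Cd163 were higher and Cd209a was lower. Chil3 (2.04) was not called without WT replicate 2 (1.25) or without db/db replicate 1 (1.46). Arg1, Clec10a, Cd163 and Cd209a also had an adjusted p below 0.05, against 9.59% of all probes. Retnla, Cd209d and Cd209f were not called there, with log2 fold changes of −0.47 ± 0.64, −0.70 ± 0.68 and 0.31 ± 1.01. The same db/db arrays enter this comparison and that of estrogen with db/db. Markers of other cells moved beside these genes here too, and their part in the result was not tested. Of 12 neutrophil genes 9 were higher in db/db, with a median of 4.82 and a summed level on a linear scale of 456 to 522 against 351 to 393 in WT. Of 14 genes of classical activation, which interferon gamma and bacterial products induce, 9 were higher and 2 lower, with a median of 2.33. General macrophage genes had 5 higher and 3 lower of 12, with a median of 0.87. Of 11 dendritic cell genes 6 were lower, with a median of −1.70 and a summed level of 14.4 to 16.9 against 42.3 to 56.1 in WT.

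Between db/db + estrogen and db/db on labelled day 14, Clec10a alone of the 10 genes was called, against 3.97% of all probes. Between db/db + vehicle and db/db, 4 were called, all higher, against 7.59%: Retnla by 2.33 ± 0.64, Cd163 by 1.67 ± 0.70, Cd209d by 1.62 ± 0.68 and Clec10a by 1.20 ± 0.37, with adjusted p of 0.117 or more (limma). Without vehicle replicate 2 none of the 4 was called. Both db/db arrays lay on the slide of replicate 1 of vehicle and of estrogen, while replicate 2 of each lay on another. Within that slide, vehicle minus db/db was 1.29 and 1.55 for Retnla, 1.59 and 1.91 for Cd163, 0.66 and 0.78 for Cd209d, and 0.87 and 1.03 for Clec10a. With slide as a fixed block, Cd163, Cd209d and Clec10a were not called. With estrogen set against vehicle, 0 of the 10 genes were called, against 1.02% of all probes, and the smallest unadjusted p was 0.0628, for Arg1. Between db/db and WT, 4 were called, against 18% of all probes: Arg1, Clec10a and Cd163 were higher and Retnla was lower. Arg1 and Clec10a had an adjusted p below 0.05, against 14%. Over all probes tested the median log2 fold change was −0.12 there. The db/db and WT arrays of labelled day 14 lay on different slides, and with slide as a fixed block neither Arg1 (0.60) nor Retnla (−0.80) was called. With slide as a random block both stayed called, but the estimated correlation within slides was −0.086. So small a correlation leaves that fit nearly the same as the one without slide, so it cannot settle whether slide played a part. WT replicate 2 had a 75th percentile signal of 1091 before scaling, against 2034 to 2548 on the other arrays of labelled day 14. Without WT replicate 2, Clec10a alone was called.

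Whether the effect of estrogen differed between the labelled days was tested as a contrast of the same model, labelled day 7 minus labelled day 14. Against db/db, 7 of 10 genes were called, all but Mrc1, Clec10a and Cd163, against 6.36% of all probes. Arg1 had a difference of −4.19 ± 0.68 and an adjusted p of 0.0655 (limma), the smallest of the 10. Against vehicle the same 7 genes were called, against 7.29%, and Retnla had a difference of 6.27 ± 0.90 with an adjusted p of 0.0520. For db/db against WT, Cd163 (2.78 ± 0.99) and Cd209a (−2.64 ± 0.93) were called, against 9.55% of all probes, with adjusted p of 0.225 and 0.221. For vehicle against db/db, Cd163 and Retnla were called, against 2.92%, with adjusted p of 0.889 and 0.890.

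Over all 8 groups, the level of Retnla, Clec10a and each Cd209 gene was highest with estrogen on labelled day 7, and that of Arg1 and Chil3 was lowest there. For Retnla, Clec10a, Cd209a, Cd209b and Cd209f the 2 arrays of that group did not overlap with those of the next group in order. For Cd209d they did, by a small margin, with db/db + vehicle on labelled day 14. The share of all probes whose highest group stands clear in this way was not computed, so this only describes the levels. In the order of Mrc1, every group overlapped with the next. WT on labelled day 7 had the lowest mean for Mrc1, Clec10a, Cd163, Cd209b and Cd209f, but for each of them it overlapped with the next group. Cd209b was not well above background on either array of that group, so the span of its means depends on a level near the background. The group means of a gene spanned from 1.62 for Mrc1 to 7.64 for Cd209b, while the pooled SD within groups was 0.40 for Clec10a, the smallest, and 1.13 for Cd209b, the largest.

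Across the 16 arrays the genes fell into sets with like patterns, given here as a description, since the arrays share groups, slides and scan days. Cd209b, Cd209d and Cd209f had Pearson's r of 0.85 to 0.93 with each other. Cd163 had r of 0.90 with both Mrc1 and Clec10a, and Arg1 had r of 0.80 with Chil3. Retnla had r of 0.81 with Cd209d and −0.63 with Arg1, and Arg1 had r of −0.73 with Cd209a. Among 16862 other named genes well above background on at least 8 arrays, the highest r was with Cd209g for Cd209b (0.92) and for Cd209f (0.94), with the complement gene C6 for Cd209d (0.94), and with Heph for Cd209a (0.88). For Clec10a it was Folr2 (0.94) followed by Ccn5 (0.93) and Csf1r (0.93), for Cd163 Eps8 (0.96), for Retnla Lifr (0.92), for Arg1 AA467197 (0.96) and for Chil3 Cxcl5 (0.93).

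**Figure D3:**
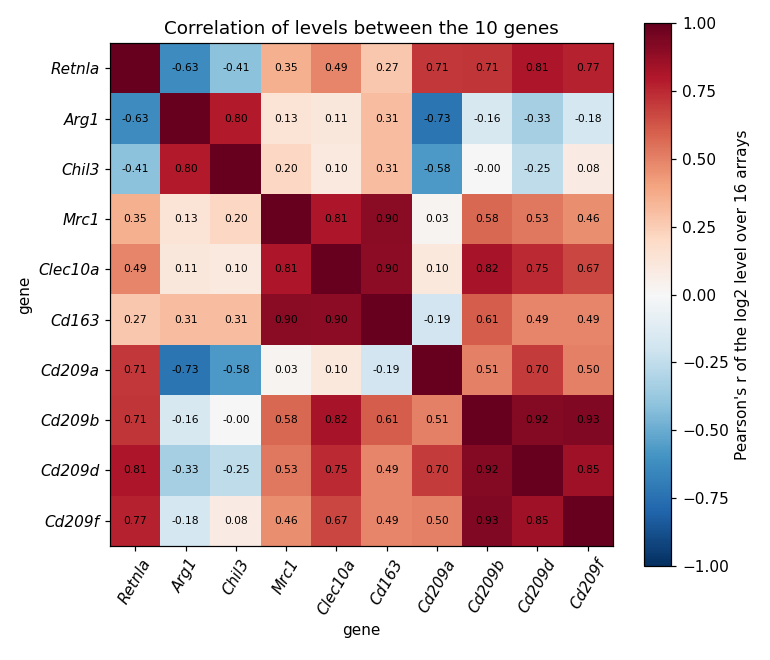
Pearson's r of the log2 level over 16 arrays for each pair of the 10 genes, on a colour scale from −1 (blue) to 1 (red). Cd209b, Cd209d and Cd209f form a block of 0.85 and above, and Arg1 is negative with Retnla and Cd209a.

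The ligands and signal genes of the interleukin-4 pathway were called in both directions with estrogen. Of 20 genes of this axis, 19 were tested between db/db + estrogen and db/db on labelled day 7, of which 5 were called, against 9.97% of all probes: 2 were higher (Irf4 by 1.70 and Tslp by 1.25) and 3 lower (Il4 by −2.18, Il2rg by −1.61 and Il33 by −1.20), with a median of −0.09. Against vehicle, 4 of 19 were called, 2 higher and 2 lower, against 9.06% of all probes, and none had an adjusted p below 0.05. Il4, the cytokine itself, had an adjusted p of 0.0184 (limma) between estrogen and db/db. It was also lower with vehicle than in db/db, called without adjustment (−2.09 ± 0.44, adjusted p 0.0855). Its mean level on labelled day 7 was −5.52 with estrogen and −5.42 with vehicle, against −3.34 in db/db. Between estrogen and db/db, the receptor chain Il4ra was at −0.64 ± 0.37 and Stat6 at −0.30 ± 0.17, neither called. Il13 was well above background on 4 of 16 arrays and was not tested here. Il4 and Il4ra were both higher in db/db than in WT on labelled day 7, by 2.37 ± 0.44 and 2.45 ± 0.37.

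Other genes of alternative activation were also called in both directions. Of 19 tested, 4 were called higher with estrogen against db/db on labelled day 7 (Mmp12, Tgm2, Igf1 and Cd36, by 1.43 to 1.11) and 5 lower, among them Pdcd1lg2 by −2.75 and Chil4 by −2.35, with a median of −0.51, where 9.97% of all probes were called. Against vehicle, 2 were higher and 3 lower, where 9.06% of all probes were called. Mgl2, the neighbour and near copy of Clec10a, gave 0.46 ± 0.20 with estrogen against db/db and was not called. Genes of macrophages resident in tissue had 7 of 17 called with estrogen against db/db, all higher, with a median of 0.90, where 9.97% of all probes were called. Fcrls by 3.07, Timd4 by 2.52, Vsig4 by 2.17 and Folr2 by 2.08 were the largest. Against vehicle, 2 of the 17 were called (Fcrls by 2.64 and Gas6 by 1.17), with a median of 0.44 and 9.06% of all probes called. Between vehicle and db/db, 4 of 16 tested were called, all higher, with a median of 0.13 and 4.88% of all probes called. Of the estrogen and glucocorticoid receptors, Esr1 was higher with estrogen than in db/db on labelled day 7, by 1.40 ± 0.36 (adjusted p 0.0454, limma). Esr2, Gper1 and Nr3c1 were not called in that comparison. On labelled day 14, 0 genes of the resident list were called between estrogen and vehicle, where 1.02% of all probes were called. Between estrogen and db/db, 3 of 17 were called there, against 3.97% of all probes.

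Markers of other cells moved beside these genes, and their part in the results was not tested. Of 12 neutrophil genes, 11 were lower with estrogen than with no treatment on labelled day 7, with a median of −5.36, and their summed level on a linear scale was 51.0 to 65.9 with estrogen against 456 to 522 in db/db. Ngp, a granule protein, was lower by 9.68. Against vehicle, 8 of the 12 were lower, with a median of −2.77 and a summed level of 464 to 491 with vehicle. Of all probes, 9.06% were called in that comparison, and 9.97% between estrogen and db/db. Of 14 genes of classical activation, 9 were lower, with Il1b at −6.48 and Nos2 at −4.93, and a median of −3.25, and 8 were lower against vehicle, with a median of −1.24. General macrophage genes had 1 higher and 3 lower of 12, with a median of 0.14 and a summed level of 113 to 121 with estrogen against 124 to 140 in db/db. Csf1r, the receptor on which most macrophages depend, gave 0.39 ± 0.24 and Adgre1, another gene of most macrophages, gave 0.12 ± 0.29, neither called. Of 11 dendritic cell genes, 4 were higher (Ciita, Clec9a, H2-Aa and H2-Ab1), with a median of 1.09, where 9.97% of all probes were called, and none had an adjusted p below 0.05. Against vehicle 1 of the 11 was called (Clec9a), with a median of 0.17. Vehicle against db/db had 2 higher, with a median of 0.77, where 4.88% of all probes were called.

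The other lists held at most 3 calls each between estrogen and db/db on labelled day 7, where 9.97% of all probes were called. Eosinophil and mast cell genes had 2 of 9 called, both lower, adipocyte genes 1 of 9 higher, vessel genes 2 higher and 1 lower of 8, and keratinocyte genes 2 of 6 higher. Of 5 fibroblast and 5 skeletal muscle genes none was called. All 12 general macrophage genes were well above background on every array, so that macrophage genes were measured in each group. The fibroblast markers were well above background on every array, and so were all 6 keratinocyte markers.

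**Figure D4:**
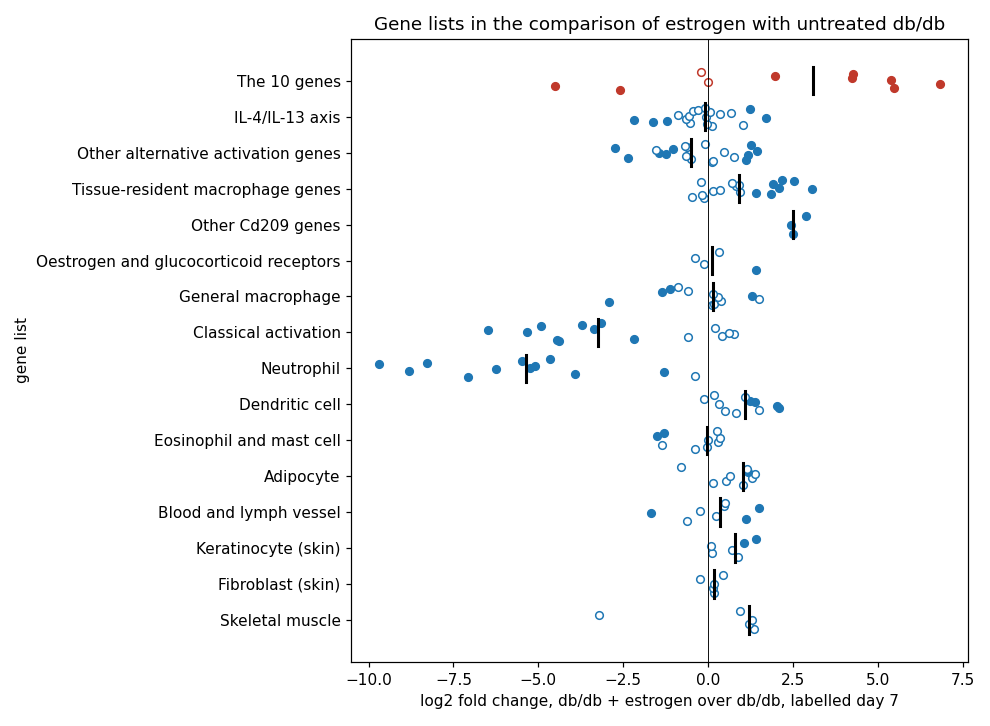
Log2 fold change with estrogen against untreated db/db on labelled day 7 for the 10 genes (red) and for the tested genes of 15 lists (blue), with filled points for calls and a bar at the median of each list. The medians of the neutrophil list (−5.36) and the classical activation list (−3.25) lie farthest to the left, and the 10 genes spread to both sides of 0.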

How the data were processed

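Wounds of 16 samples were read on one-colour Agilent mouse 4x44K arrays. The authors deposited scanner files with an intensity for each spot, made with Agilent Feature Extraction 11.0.1.1 by subtracting background, with no scaling between arrays, and a table whose values are a ratio of signal to the 75th percentile of the array. That table matched the scaled signal and served as an alternative. Here, spots marked as outliers were left out, spots of a probe were averaged, and log2 levels were expressed relative to the array's 75th percentile. Probes were named through RefSeq (GRCm38.p6), which named 27427. A gene with several probes was read through the brightest. A probe was tested where 1 or both groups compared had it well above background on each of their arrays.

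Comparisons were fitted with limma 3.58.1 in R 4.3.3 as 8 groups of 2 arrays, leaving 8 residual degrees of freedom, and tested on simulated data first. Calls used thresholds of 0.05 on the unadjusted p and 2 on the fold change. The alternatives were normexp background correction (offset 50), quantile normalization, no filter, a filter on all 4 arrays, a floor, the deposited ratios, a fit of 4 arrays alone, slide as a block, fixed or random (statmod 1.5.0), a replicate block, the mean over probes, and leaving out each array. All 10 genes, every probe of them, were named by rule, with up to 4 called genes per list. The gene with the pattern most like that of Mrc1 is not reported here. The genes, lists and tests were chosen with earlier results of these data known.

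The day labels were checked against 40 fold changes printed in 2 tables of the study. Of these, 0 were within 1% of the value computed from the arrays labelled with the same day, and 40 were within 1% of that from the arrays labelled with the other day, taking the closest probe of an accession.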

Additional observations from a re-analysis of the deposited data

Results flagged for a closer look

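Differences between the labelled days were listed where the contrast of the effect on labelled day 7 minus that on labelled day 14 had an unadjusted p below 0.05 and a size above 1 on the log2 scale. For db/db vs WT, Cd209a differed by −2.64, Cd163 differed by 2.78. For db/db + estrogen vs db/db, Chil3 differed by −2.09, Retnla differed by 4.18, Arg1 differed by −4.19, Cd209b differed by 5.28, Cd209f differed by 4.45, Cd209a differed by 3.81, Cd209d differed by 3.10. For db/db + vehicle vs db/db, Retnla differed by −2.09, Cd163 differed by −2.36. For db/db + estrogen vs db/db + vehicle, Chil3 differed by −2.26, Retnla differed by 6.27, Arg1 differed by −4.17, Cd209b differed by 3.96, Cd209f differed by 4.26, Cd209a differed by 3.05, Cd209d differed by 2.94. None of these had an adjusted p below 0.05, and the smallest was 0.0520 for Retnla between estrogen and vehicle (limma). The comparisons share arrays: estrogen enters 2 of them and db/db enters 3. Day and scan cannot be told apart, and the order of the labelled days is not settled. With 2 arrays per group, no group was large enough for a search for single arrays that stand apart.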

How the results depend on the processing

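Most values kept their direction and their side of the thresholds. Of 1279 values of single genes under alternatives other than leaving out an array, 1237 stayed on their side, 21 lost a call, 21 gained one and 0 reversed. Of 640 values with 1 array left out, 564 stayed, 63 lost a call, 12 gained one and 1 reversed: without db/db + vehicle day 7 replicate 1, the difference of the vehicle effect between the labelled days was −1.90 for Cd209f, and without replicate 2 of that group it was 2.28. The cause was not tested. Leaving out 1 array gave 4 to 6 genes called for db/db vs WT on labelled day 7, 8 in every case for db/db + estrogen vs db/db, 0 to 3 for db/db + vehicle vs db/db and 6 to 7 for estrogen against vehicle. On labelled day 14 the same comparisons gave 1 to 4, 1 to 2, 0 to 4 and 0 to 1. With slide as a fixed block, vehicle against db/db had 5 genes called on labelled day 7 and 2 on labelled day 14, and estrogen against vehicle had 1 on labelled day 14. A replicate block also gave 1 there. It moved no other count of called genes by over 1.5 times. Estrogen against db/db on labelled day 14 had 2 with normexp and 5 in a fit of only the 4 arrays compared. Over all 28243 probes tested there, 531 were called with normexp and 1120 in the main fit, so the count over all probes moved with the setting too. The counts of this paragraph describe how stable the calls were and are not set against a share of all probes. Requiring all 4 arrays well above background left Cd209b out of the test of estrogen against db/db on labelled day 7, and Cd163 out of that of db/db against WT, by construction. Samples with the same replicate number had deviations that correlated between −0.35 and 0.31 over 12 pairs of groups, so the numbers were not taken as pairs. Genes near background, Cd209b above all, had folds that depend on the treatment of dim signals.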
